A study of Mus musculus with 2 samples.

Results

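Small leucine-rich proteoglycans are secreted proteins built around a curved stack of leucine-rich repeats, and many of them carry chondroitin, dermatan or keratan sulfate chains. In cartilage they sit on collagen fibrils, where they affect how the fibrils assemble and how far apart they lie, and several of them also hold growth factors such as TGF-β. The genes described here were 10 named members of this family (Dcn, Bgn, Aspn, Fmod, Lum, Prelp, Omd, Epyc, Ogn and Chad). Every probe set whose only gene symbol was one of these names was taken, which gave 21 of 45101 probe sets on the array and 10 of 18193 named genes. The rule itself uses gene names alone, but the list was drawn up with earlier results of these data known.

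Growth plate chondrocytes change from round cells through flat cells in columns to hypertrophic cells, and the 2 arrays compare an early and a later stretch of this path in wild-type C57BL/6J mouse embryos at E17.5. One array held columnar and hypertrophic chondrocytes (the CH array) and the other round chondrocytes (the round array). For each array, 3 pieces of cartilage plate gave total RNA that was pooled, and the pieces were enriched for these cells and not pure. Each group was thus a single array without replicates, so no error between animals and no test can be given, and precision is limited by this number of arrays throughout. In such mixed RNA, fewer cells of a type and less RNA per cell cannot be told apart.

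Values are MAS5 signals on a linear scale. A signal of 100.5, the 95th percentile of 87 probe sets for chemosensory receptor genes, was used as the floor of detection, and signals under it were set to it before log2 differences were taken. Differences are CH minus round, and a gene is represented by its probe set of highest mean signal on the log2 scale. Where only 1 array reached the floor, the fold is a bound and is given as "at least". Each probe set has its own brightness, so levels are compared between the arrays and not between genes. Most marker genes followed the labels, and an exception, Fst, is given with the round markers below. Col10a1 (CH 10818, round 24.2) and Ihh (CH 2153, round 143), genes of hypertrophic and prehypertrophic chondrocytes, had the higher signal on the CH array. Prg4 of the joint surface (CH 45.2, round 2821) had the higher signal on the round array. Col2a1, the main cartilage collagen, had 37936 on the CH array and 33307 on the round array, and the chondrocyte transcription factor gene Sox9 had 7203 on the CH array and 7815 on the round array.

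On the CH array, 4 of the 10 genes (Ogn, Dcn, Omd and Bgn) were lower by 2-fold or more and 1 (Prelp) was higher by 2-fold or more. Another 4 (Fmod, Lum, Epyc and Chad) were above the floor on both arrays and within 2-fold, and Aspn was barely above the floor on the round array alone. Among 11703 measured genes of the whole array, 6.37% were lower by 2-fold or more and 4.31% higher. Dcn and Ogn were lower by 4-fold or more, 2 of the 10, against 1.12% of all measured genes. The median difference over the 10 genes was -0.36 on the log2 scale, against -0.05 over all measured genes. The members ranged from -2.66 for Ogn to 1.5 for Prelp. Of the 21 probe sets, 18 had the lower signal on the CH array and 3 the higher, with Lum, Epyc and 1 of Fmod too close to 0 to hold a side under other scalings. Past 2-fold, 8 probe sets were lower and 2 higher. The same counts over all probe sets were not made, and genes with several probe sets enter several times. The median signal was itself lower on the CH array (105) than on the round array (127). These probe set counts thus only describe the members.

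**Figure D1:**
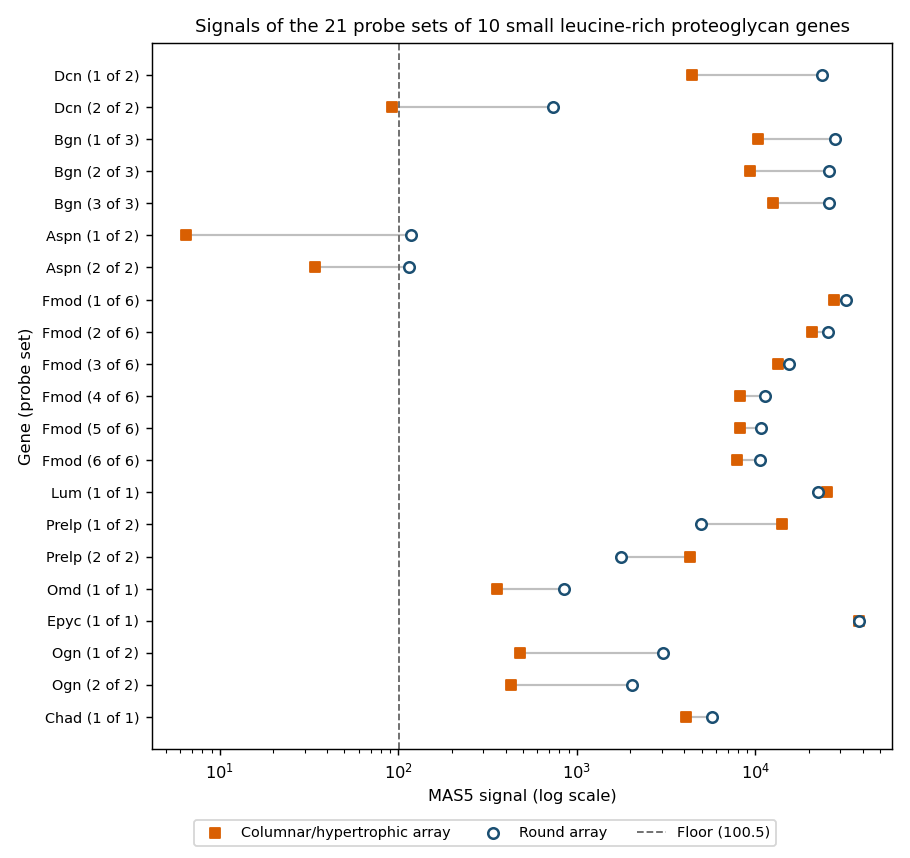
MAS5 signal (horizontal, log scale) of each of the 21 probe sets on the columnar/hypertrophic array (CH, squares) and the round array (circles). Each group is 1 array, and the dashed line is the detection floor of 100.5; both Prelp probe sets have the square well to the right of the circle, and the square and circle of Epyc coincide.

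The start regions below are those of the genes at both ends of the range, Prelp and Ogn, and of their neighbours in the same gene cluster, Fmod and Omd, which differed from them by over 1 on the log2 scale. Each runs 5′ to 3′ from 250 bases before to 50 bases after a RefSeq start site of build GRCm38.p6. The RefSeq table held such windows for 8 of the 10 genes, with Dcn and Lum not matched. Capitals mark matches on either strand to any of 6 short motifs. The box bound by the general machinery was searched as TATAAA. The core recognised by SOX factors was searched as AACAAT, and that shared by SOX and LEF factors as ACAAAG. The RUNX core was searched as TGTGGT, the AP-1 site as TGANTCA, and the GC box as GGGCGG.
Prelp, chr1:133921352-133921651, minus strand: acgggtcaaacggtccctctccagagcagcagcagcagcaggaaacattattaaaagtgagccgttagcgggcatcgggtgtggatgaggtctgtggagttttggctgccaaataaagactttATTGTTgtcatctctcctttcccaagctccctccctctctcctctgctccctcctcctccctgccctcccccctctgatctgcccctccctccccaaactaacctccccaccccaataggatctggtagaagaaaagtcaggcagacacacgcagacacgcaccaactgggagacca
Fmod, chr1:134037004-134037303, plus strand: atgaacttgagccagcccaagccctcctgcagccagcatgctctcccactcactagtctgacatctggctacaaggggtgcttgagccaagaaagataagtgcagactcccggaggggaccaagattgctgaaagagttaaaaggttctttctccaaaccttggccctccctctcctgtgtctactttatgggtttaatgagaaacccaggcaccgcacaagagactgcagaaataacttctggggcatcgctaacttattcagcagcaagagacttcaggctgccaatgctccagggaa
Omd, chr13:49582212-49582511, plus strand: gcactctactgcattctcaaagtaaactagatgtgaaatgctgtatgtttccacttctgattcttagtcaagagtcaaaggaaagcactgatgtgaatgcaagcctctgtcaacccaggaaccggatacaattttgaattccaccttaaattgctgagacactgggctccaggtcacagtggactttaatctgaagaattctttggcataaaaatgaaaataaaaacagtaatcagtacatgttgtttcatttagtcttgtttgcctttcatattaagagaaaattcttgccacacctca
Ogn, chr13:49607765-49608064, plus strand: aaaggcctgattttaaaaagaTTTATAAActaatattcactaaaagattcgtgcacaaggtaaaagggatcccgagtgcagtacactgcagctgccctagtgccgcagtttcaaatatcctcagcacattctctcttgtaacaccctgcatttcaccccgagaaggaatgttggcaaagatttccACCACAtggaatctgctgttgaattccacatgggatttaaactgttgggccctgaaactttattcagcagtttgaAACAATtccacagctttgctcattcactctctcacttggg

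The Prelp window held 1 SOX core, 127 to 122 bases before the start. The Ogn window held 1 SOX core at bases 11 to 16 after the start, 1 RUNX core, and TATAAA on both strands of the same 8 letters, and the windows of Fmod and Omd held none of the 6 motifs. The SOX core was found in 10.7% of 32851 windows of this length in the table, TATAAA in 13.6%, the SOX and LEF core in 18.7%, the RUNX core in 16.8%, the AP-1 site in 7.81% and the GC box in 35.7%. Over the 8 matched genes, Aspn, Epyc, Ogn and Prelp had a SOX core in at least 1 window, so genes with it lay at both ends of the differences and at 0. The 2 windows of Epyc held 2 and 3 SOX cores, the window of Bgn held 3 GC boxes, 2 of them overlapping, and that of Chad 1 GC box and TATAAA at 28 to 23 bases before the start. The AP-1 site was in none of the 9 windows of the 8 genes. The motifs were chosen with the expression values known, a match is only a run of letters, and no binding was measured.

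The class I genes come first. Decorin, encoded by Dcn, coats collagen fibrils with a single chondroitin or dermatan sulfate chain and binds TGF-β. Its main probe set had a signal of 4414 on the CH array and 23676 on the round array, a 5.36-fold lower value (-2.42 on the log2 scale). The second probe set had 92.8 on the CH array, under the floor, and 732 on the round array, at least 7.28-fold lower. Both Dcn probe sets thus had their high signal in round cartilage, and by its main probe set Dcn was number 75 from the lowest of the 11703 differences.

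Biglycan, encoded by Bgn, is the closest relative of decorin and also carries chondroitin or dermatan sulfate. Its probe sets had signals of 12553, 10364 and 9303 on the CH array, against 25721, 28041 and 25760 in the same order on the round array. All 3 were lower, by 2.05-fold, 2.71-fold and 2.77-fold, so the probe set that stands for Bgn gave the smallest difference. It passed 2-fold narrowly (-1.03 on the log2 scale). With both arrays scaled to equal medians it was -0.81, within 2-fold. The log2 difference of Dcn was 1.39 further from 0 than that of Bgn.

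Asporin, encoded by Aspn, has a run of aspartates in place of the chain attachment site and binds collagen and TGF-β. Its probe sets had signals of 6.44 and 34.1 on the CH array, both under the floor, and 118 and 114 on the round array, just above it. Only bounds of at least 1.17-fold and 1.14-fold lower follow from these values, so Aspn was at the edge of detection in round cartilage and under it in columnar/hypertrophic cartilage.

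Class II holds the members that can carry keratan sulfate, along with Prelp, and it had genes past 2-fold in both directions. Fibromodulin, encoded by Fmod, binds collagen and limits fibril thickness. Its 6 probe sets ran from 7869 to 27440 on the CH array and from 10644 to 32437 on the round array. All 6 gave the lower signal on the CH array, with log2 differences of -0.46 to -0.21, and the spread among them was smaller than their distance from 2-fold. Scaling to equal medians, which adds 0.23, takes the smallest of the 6 just past 0 to the other side. Lumican, encoded by Lum, competes with fibromodulin for collagen. It had a single probe set, with signals of 25256 on the CH array and 22381 on the round array (0.17). This small difference has no settled direction, being 0.40 with equal medians, -0.01 after quantile normalization and -0.06 after lowess centring.

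Prelp encodes a protein with a proline- and arginine-rich end that binds heparan sulfate and collagen. Among the 10 genes it alone was higher by over 2-fold on the CH array. Its probe sets had signals of 14059 and 4285 there, against 4975 and 1778 in the same order on the round array. The differences were 2.83-fold and 2.41-fold higher (1.5 and 1.27 on the log2 scale), and Prelp was number 209 from the highest of all measured genes. Osteomodulin, encoded by Omd and known from bone, where it binds mineral, went the other way. Its single probe set had 355 on the CH array and 850 on the round array, 2.39-fold lower (-1.26).

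**Figure D2:**
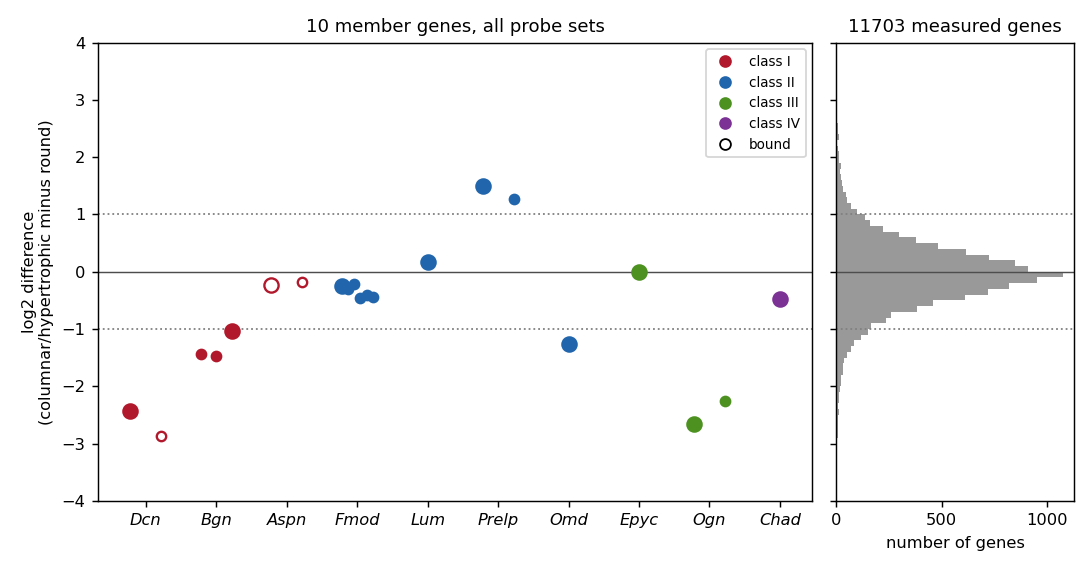
Log2 difference (CH minus round) of every probe set of the 10 genes, coloured by class, with large points for the probe set that stands for the gene and open points for bounds, beside the number of measured genes at each difference (right; 22 of 11703 lie beyond 4 in either direction and are not drawn). Dotted lines mark 2-fold; Prelp lies above, all probe sets of Dcn, Bgn, Omd and Ogn below, and Fmod, Lum, Epyc and Chad between them.

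Class III held the gene with the smallest difference and the gene with the lowest. Epiphycan, encoded by Epyc, is a dermatan sulfate proteoglycan of growth plate cartilage. Its single probe set had a signal of 37992 on the CH array and 38013 on the round array, a difference of -0.001. With equal medians the difference was 0.23 and with lowess centring -0.27, so no direction was settled. Osteoglycin, encoded by Ogn and also called mimecan, gave the lowest difference of the 10 genes. Its probe sets had signals of 480 and 426 on the CH array, against 3042 and 2041 in the same order on the round array, 6.34-fold and 4.79-fold lower. Ogn was number 53 from the lowest of all measured genes (-2.66).

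Chondroadherin, encoded by Chad, is the class IV member and binds collagen and, through an integrin, chondrocytes. Its single probe set had 4114 on the CH array and 5753 on the round array (-0.48), within 2-fold under all 8 other scalings, floors and probe set rules. Under each of those 8 settings, Dcn, Ogn and Omd were lower and Prelp higher by 2-fold or more, and Fmod, Lum and Epyc also stayed within 2-fold.

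As a technical yardstick, the log2 differences of different probe sets of a gene had an SD of 0.367 within genes, over 4825 genes whose signal several probe sets measured. This is no spread between animals. It also leaves out any error shared by the probe sets of an array, so passing it does not settle a change. The differences of Ogn, Dcn, Prelp, Omd, Bgn and Chad from 0 exceeded it, whereas those of Fmod, Lum and Epyc were smaller than it. Whether Chad, Fmod and Lum exceeded 0.367 depended on the scaling. With equal medians Chad was -0.26, smaller than it, and Lum 0.40, larger. Fmod was larger, at -0.43 after quantile normalization and -0.49 after lowess centring. Only 6 of the 10 genes had several probe sets, and Omd, Lum, Epyc and Chad rest on 1 each.

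Apart from Bgn and Chad, the genes lie in 3 clusters, and each was read in chromosome order with 3 protein-coding neighbours on either side (order from RefSeq, GRCm38.p6). On chromosome 10, Dcn, Lum, Kera and Epyc follow each other. Dcn was 5.36-fold lower, while its next neighbour Lum (0.17) and Epyc (-0.001) were within 2-fold, so that Dcn and Lum differed from each other by -2.60 on the log2 scale. Kera, which encodes keratocan of the cornea, was under the floor on both arrays (CH 3.55, round 46.6). On chromosome 1, Prelp (1.5) and Fmod (-0.24) differed by 1.74, and Optc, which encodes opticin of the eye, was under the floor (CH 7.67, round 18.9).

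On chromosome 13, Ecm2, Aspn, Omd and Ogn all had the lower signal on the CH array. Omd (-1.26) and Ogn (-2.66) passed 2-fold, and Aspn gave a bound. Ecm2, a relative with leucine-rich repeats, had 2.87 on the CH array and 184 on the round array, a bound of at least 1.83-fold lower that passed 2-fold once the floor was set to the 90th percentile (-1.16). The size of the difference for Ecm2 and Aspn is not limited above. Of the 14 measured flanking genes of the 3 clusters, 1 was lower and 1 higher by over 2-fold. These were the chitinase-like gene Chil1 near Fmod (CH 203, round 1059, -2.38) and Nol8, directly after Ogn (CH 569, round 264, 1.11). Near Dcn, Btg1, which encodes a regulator of cell growth, had 6063 on the CH array and 11482 on the round array (-0.92).

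**Figure D3:**
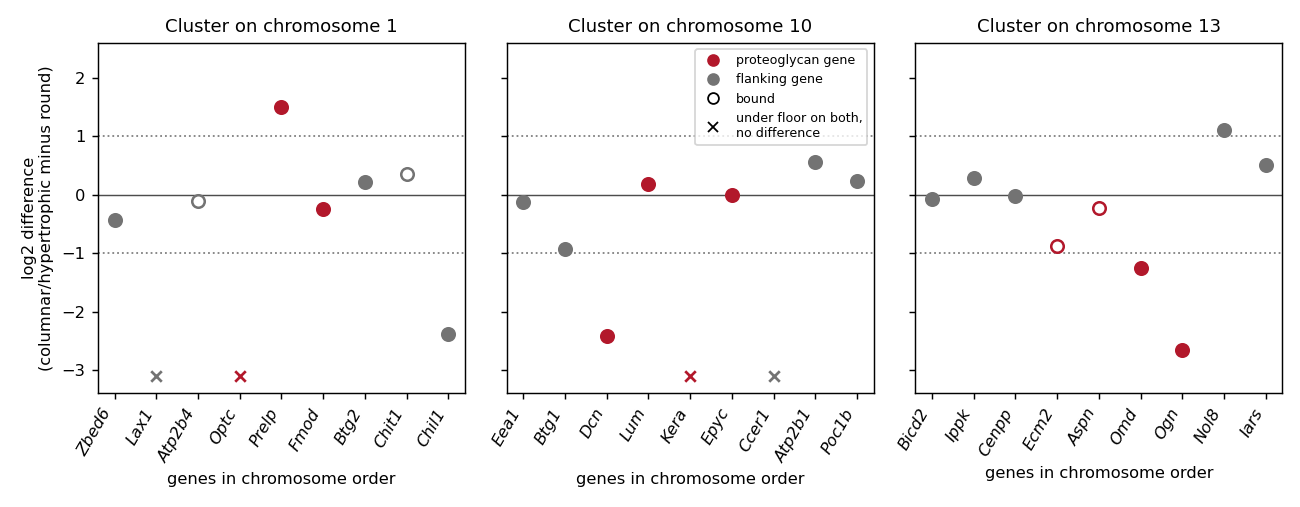
Log2 difference (CH minus round) of the genes of 3 clusters and their protein-coding neighbours on the array, in chromosome order and not to scale, with open points for bounds and crosses at the bottom for genes under the floor on both arrays. On chromosome 10 Dcn (-2.42) stands beside Lum (0.17), on chromosome 1 Prelp (1.5) beside Fmod (-0.24), and on chromosome 13 the 4 proteoglycan genes all lie below 0.

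Other members of the family, outside the 10, were counted next. Of 8 further genes, 6 had a probe set of their own and 4 were measured, with 0 past 2-fold at the floor used. For Ecm2 this count does not settle the size, since it gave only a bound (CH 2.87, round 184, at least 1.83-fold lower). With the floor at the 90th percentile it was past 2-fold (-1.16). Chadl, encoding a chondroadherin-like protein of cartilage, had 5666 on the CH array and 5176 on the round array (0.13). Podn, encoding podocan, had 386 on the CH array and 397 on the round array (-0.04), and Nyx, encoding nyctalopin of the retina, was at the floor (CH 87.2, round 103).

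The enzymes that build and sulfate the chains of these proteins were read in the same way. Of 6 genes of the linkage region, through which a chain is joined to the protein, 0 passed 2-fold by the probe set that stands for the gene (median 0.17). The xylose kinase gene Fam20b had the largest difference (CH 8514, round 5480, 0.64), and its 3 probe sets ran from 0.50 to 1.17. Of 13 measured genes of chondroitin and dermatan sulfate chains, 2 were higher on the CH array by 2-fold or more and 0 lower (median 0.15). Chst15, a sulfotransferase of chondroitin sulfate, had 1418 on the CH array and 312 on the round array, 4.55-fold higher. Chsy3, a chondroitin synthase, had 1016 on the CH array and 220 on the round array, 4.62-fold higher, but its other probe set gave 0.03. Dse and Dsel, the epimerases that turn chondroitin into dermatan sulfate, differed by -0.10 and -0.11, whereas Dcn differed by -2.42.

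Of 7 measured keratan sulfate genes, 1 was lower, the sulfotransferase gene Chst2, with 67.8 on the CH array and 205 on the round array, a bound of at least 2.04-fold that came to under 2-fold with each other scaling and with the floor at the 99th percentile. The galactosyltransferase gene B4galt1 had 580 on the CH array and 1048 on the round array (-0.85). Of 6 genes for tyrosine sulfation, a modification of fibromodulin, lumican and osteomodulin, and for sulfate supply, 1 passed 2-fold. It was the sulfate transporter gene Slc26a2, with 15246 on the CH array and 7501 on the round array (2.03-fold higher, but under 2-fold after quantile normalization and lowess centring). As deposited, the 3 probe sets of Slc26a2 ran from 1.02 to 1.46. Slc35b2, also of sulfate supply, came close to 2-fold higher (CH 5578, round 2864, 0.96), and its other probe set gave 1.57. It was past 2-fold with equal medians (1.19) and by the mean of its probe sets (1.27). Papss2 differed by 0.53, with its measured probe sets reaching up to 1.23. The tyrosine sulfotransferase genes Tpst1 (-0.46) and Tpst2 (-0.23) were within 2-fold.

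**Figure D4:**
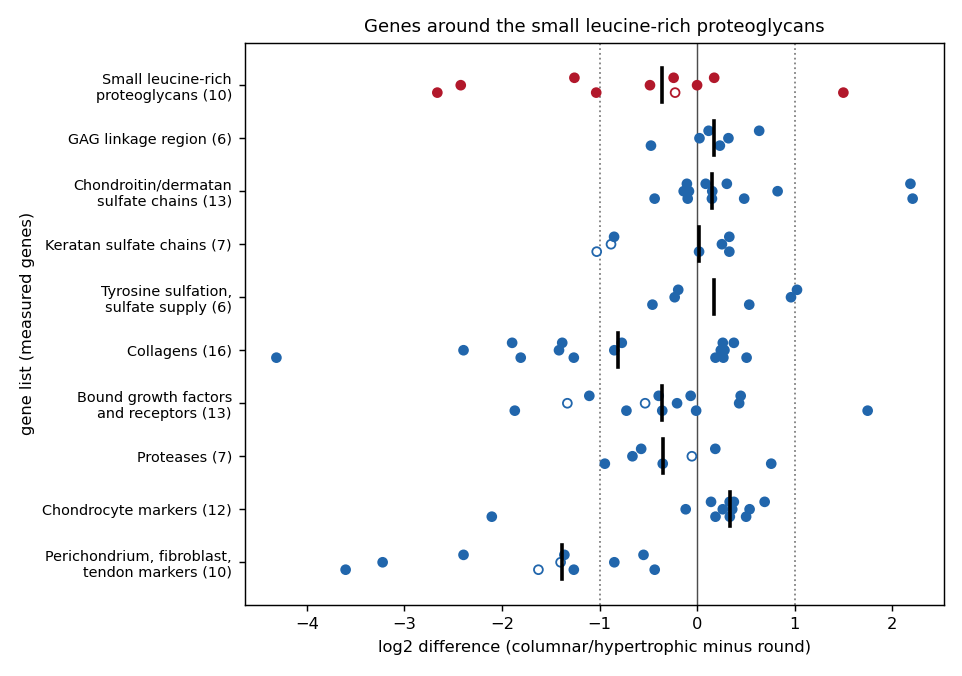
Log2 difference (CH minus round) of measured genes in 10 lists, 1 point per gene, open points for bounds, black bars for list medians and dotted lines for 2-fold, with the number of measured genes in brackets. The proteoglycan genes (median -0.36) and the collagens (-0.81) are spread widely, and the marker list of perichondrium, fibroblasts and tendon lies wholly below 0 (median -1.38).

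Collagens are the main ligands of these proteins. Of 16 collagen genes, 7 were lower on the CH array by 2-fold or more and 0 higher (median -0.81). The 6 genes of cartilage fibrils, types II, IX and XI, lay between 0.19 and 0.38, all within 2-fold. The 7 lower genes were all among the 10 others, whose median was -1.40. Among them, Col14a1 of type XIV collagen was 19.9-fold lower (CH 119, round 2375, -4.31), though its other measured probe set gave -2.53. Col3a1 of type III was 5.26-fold lower (CH 4986, round 26223, -2.39), with -3.23 by its other probe set. Col6a2 of type VI was 3.72-fold lower (CH 2100, round 7818, -1.90), with -1.28 by its other probe set. Col5a1 of type V was 3.5-fold lower (CH 1345, round 4713). The chains of type VI collagen differed, since Col6a1 had -1.38 (CH 2788, round 7274) but Col6a3 had 0.51 (CH 12239, round 8615), the highest difference of the 16. Col1a2 of type I, at -0.85, was past 2-fold after quantile normalization, after lowess centring and by the mean of its probe sets. This split of the collagen list was made after the values were seen.

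Among 13 measured growth factors, receptors and matrix partners of these proteins, 3 were lower and 1 higher (median -0.36). The lower ones were Eln, encoding elastin (CH 228, round 833, 3.65-fold), Bmp4 (CH 69.8, round 253, at least 2.52-fold) and Tgfb3 (CH 354, round 762, 2.15-fold). The higher one was Tgfb2 (CH 1369, round 408, 3.36-fold, with its 4 probe sets from 1.06 to 1.97 on the log2 scale). Tgfb3 came within 2-fold with equal medians (-0.88), and the bound for Bmp4 did with the floor at the 99th percentile (-0.80). Of 7 measured proteases that process or cut these proteins and fibrils, 0 passed 2-fold by the probe set that stands for the gene (median -0.35). Mmp2, encoding a gelatinase, was close to it, with 6151 on the CH array and 11854 on the round array (-0.95). It was past 2-fold by its other probe set (-1.19), after quantile normalization (-1.10), after lowess centring (-1.12) and by the mean of its probe sets (-1.07). For Mmp14, which encodes a membrane-bound protease, the 3 probe sets ran from -1.26 to -0.35. Bmp1, whose product trims the propeptide of biglycan, had 353 on the CH array and 560 on the round array (-0.66).

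Markers of fibrous tissue moved with Dcn, Ogn, Omd and Bgn. In a list of 13 perichondrium, fibroblast and tendon markers, 10 were measured, 7 were lower on the CH array by 2-fold or more and 0 higher (median -1.38). With the floor at the 99th percentile the bound for Prrx1 fell short and 6 were lower. The summed signal of the list was 23662 on the CH array and 64304 on the round array, of which Col1a2 and Col3a1 made up 87.3% on the CH array and 84.7% on the round array. The other 11 genes summed to 3005 on the CH array and 9846 on the round array. Postn, encoding periostin, was 12.2-fold lower (CH 158, round 1919) and Tnmd, a tendon gene, at least 3.09-fold lower (CH 35.8, round 311). Mkx (CH 333, round 487, -0.55) and Thbs4 (CH 109, round 148, -0.44), also of this list, were within 2-fold. Tnc, encoding tenascin C, was 9.34-fold lower (CH 156, round 1462, -3.22), though its other probe set gave -1.18. Scx, the defining transcription factor gene of tendon, was under the floor on both arrays (CH 60.7, round 87.9), as were Thy1 and Dpt, and no marker was at 0. Col1a1, Col1a2 and Col3a1 stand both in this list and among the collagens. Markers of round and periarticular chondrocytes mostly moved the same way, with 8 of 10 lower and 1 higher by 2-fold or more. The higher one was Fst (CH 339, round 47.4, at least 3.38-fold). The summed signal of these markers was 2767 on the CH array against 28312 on the round array. Cytl1 and Sfrp2 had the largest signals summed over both arrays. Without them the sum was 1784 on the CH array and 10329 on the round array. The part of either cell group in the differences of the proteoglycan genes was not tested.

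Of the 12 chondrocyte markers, 11 were within 2-fold (median 0.33), and Ucma, a gene of resting and upper cartilage, was the exception (CH 4115, round 17706, 4.30-fold lower). Of 8 measured hypertrophic markers, 7 were higher by 2-fold or more, the direction of Prelp. The summed signal of these markers was 56251 on the CH array against 3389 on the round array. Sgms2 and Panx3 had the largest signals summed over both arrays. Without them the sum was 24315 on the CH array and 2774 on the round array. The part of these markers in the difference of Prelp was not tested. Endothelial, blood and osteoclast markers were mostly under the floor, with 2 of 8, 3 of 6 and 1 of 5 genes on the array measured and 0 past 2-fold. Muscle markers had 4 of 8 measured, Tnnt3 at least 4.26-fold higher and Des at least 2.56-fold lower (within 2-fold once the floor was set to the 99th percentile). Osteoblast markers had 2 of 5 measured, of which Sp7, which hypertrophic chondrocytes also express, was 11.4-fold higher (CH 1940, round 170) and Ifitm5 differed by 0.58. Dmp1 (CH 18.8, round 26) and Sost (CH 26.2, round 8.63), genes of osteocytes, were under the floor on both arrays.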

How the data were processed

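Both were Affymetrix whole-genome mouse arrays. The deposited intensity values came from MAS5 per the submitters' processing notes, with no version given in those sources, whereas RMA, named in the study's methods, yields logs. The deposited values were linear and had a mean of 500.0 on both arrays after removal of the lowest and highest 2% of probe sets, so they were read as scaled MAS5 signals. Such scaling assumes comparable total signal, and low signals are noisy. Median signals were 105 on the columnar/hypertrophic array and 127 on the round array.

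Gene names came from the platform's annotation (34958 with 1 symbol, 932 with several, 9211 unnamed here, 64 controls left out), updated through RefSeq identifiers. Genes were counted at 2-fold, with no test. The steps were tested on simulated data. Members and gene lists were chosen with earlier results of these data known. All 10 members, the other family genes, up to 4 genes with the largest differences per list and fixed markers were named. Dse, Dsel, Tpst2, Mmp14, Col6a1, Col6a3, Col1a2, Prrx1, Cytl1, Fst, Dmp1, Sost, Thy1, Dpt, Scx, and the neighbours in the clusters were added to the text with their values known. Mkx and Thbs4 were added in the same way. The alternatives comprised 3 scalings, floors at the 90th and 99th percentiles (82.2 and 145) or none, the mean of probe sets, no _s_at or _x_at probe sets, and thresholds of 1.5-fold and 4-fold. Python 3.11.15, pandas 2.3.3 and statsmodels 0.14.6 were used.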

Additional observations from a re-analysis of the deposited data

How the results depend on the processing

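Scaling to equal medians added 0.23 to each log2 difference with no signal at the floor and took the median over all measured genes to 0.17, and the array then held 826 higher and 461 lower genes (64.2% of calls higher), against 504 and 745 (40.4%) as deposited. Bgn then came within 2-fold and 3 members were lower. Quantile normalization gave 567 higher and 581 lower genes (49.4%), with 4 members lower and 1 higher. Without a floor, Aspn had -1.75 and the median over members was -0.76. Signals under the floor then entered as measured, and Aspn was also represented by its other probe set, the first giving -4.19. In that setting 5 members were lower, and 1644 genes were higher and 3046 lower over the array. At a threshold of 4-fold, 0 members were higher and 2 lower (Dcn and Ogn), with 102 higher and 131 lower over all genes, and at 1.5-fold the array held 1372 higher and 1848 lower genes. Aspn gave no value with quantile normalization or with the floor at the 99th percentile. No paired analysis was possible because each group was 1 array. Lum, Epyc and Fmod had differences too small to give a direction at this precision, and Aspn, Ecm2 and Nyx lay too close to the floor to be sized.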

Other observations

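Bgn and Chad lie outside the clusters. Near Bgn on the X chromosome, Haus7, a gene of the mitotic spindle, had 1184 on the columnar/hypertrophic (CH) array and 650 on the round array (0.87), and the phosphatase gene Dusp9 had 355 on the CH array and 38.2 on the round array, at least 3.53-fold higher, so the measured neighbours of Bgn lay on the other side of 0. Near Chad on chromosome 11, Lrrc59, which encodes a leucine-rich repeat protein of the ER, had 8113 on the CH array and 4084 on the round array (0.99), and the acyl-CoA synthetase gene Acsf2 had 17.4 on the CH array and 252 on the round array, at least 2.51-fold lower. These neighbours were named after their values were seen, and no cause was tested.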
